A study of Mus musculus with 9 samples.

Results

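The 10 genes described here encode the machinery that builds mucin-type glycans: the initiating enzymes Galnt3 and Galnt6, the core enzymes C1galt1, Gcnt1 and Gcnt3, the chaperone C1galt1c1, the extending enzyme B3gnt3, and the terminal enzymes St6galnac1, Fut2 and B4galnt2. They were taken by name from the 49671 genes of the count tables, with earlier results of these data known. B4galnt2 was chosen by its low level in knockout tumours, a value of these same libraries, so its levels are given as a description with no test, and every count of enzymes called below runs over the other 9. The libraries came from mouse KPC pancreatic cancer cells, and the labels do not state the alleles of the line.

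There were 4 groups. KO tumours (n = 2) grew from KPC49bKO cells, labelled a knockout of CD49b, the integrin alpha2 subunit encoded by Itga2, and WT tumours (n = 3) grew from KPCWT cells. Both were placed under the skin of the flank of C57BL/6 mice of matching strain, with host immune cells and stroma, and both were broken up with enzymes before RNA was taken. KO cultures (n = 2) and WT cultures (n = 2) were the same lines in serum-supplemented medium near confluence, without host cells. Each genotype was 1 line, so a KO effect is a difference between those lines, and the batch named in the labels is the same as the setting, so tumour and batch cannot be told apart. The labels call the replicates biological without saying what was separate. The p-values thus set group differences against the spread between these samples only. The KO tumour columns are numbered 1 and 3, and those numbers are used here. The labels number these tumours 1 and 2, so column 3 was matched to its group by column name and not to a labelled sample.

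Mucin-type O-glycans start in the Golgi when a polypeptide GalNAc-transferase of the Galnt family puts N-acetylgalactosamine on a serine or threonine. C1galt1, which needs the chaperone Cosmc (C1galt1c1) to fold, adds galactose to make core 1, and Gcnt1 or Gcnt3 adds a GlcNAc branch to make core 2. B3gnt3 extends core 1 with GlcNAc, and the chains end in sialic acid, fucose, or the Sda antigen, whose last GalNAc is added by B4galnt2. Such glycans cover the mucins of the pancreatic duct, and their truncated or altered forms are well known on pancreatic cancer cells.

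The promoters of B4galnt2 and B3gnt3 are shown because B4galnt2 had the largest difference between KO and WT tumours of the 10 genes, and B3gnt3 the highest level per length. Each has 1 start listed by RefSeq. The windows run 5′ to 3′ on the gene's minus strand from 250 bases before to 50 after the start (RefSeq, GRCm38.p6), at chr11:95914822-95915121 for B4galnt2 and chr8:71701751-71702050 for B3gnt3. Capitals mark letters found on either strand.
B4galnt2: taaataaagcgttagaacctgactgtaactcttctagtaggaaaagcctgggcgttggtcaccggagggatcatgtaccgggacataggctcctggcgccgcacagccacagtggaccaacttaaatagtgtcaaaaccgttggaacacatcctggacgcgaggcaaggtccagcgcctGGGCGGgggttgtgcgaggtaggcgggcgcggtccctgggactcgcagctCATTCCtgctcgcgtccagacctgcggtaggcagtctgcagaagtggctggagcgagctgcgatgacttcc
B3gnt3: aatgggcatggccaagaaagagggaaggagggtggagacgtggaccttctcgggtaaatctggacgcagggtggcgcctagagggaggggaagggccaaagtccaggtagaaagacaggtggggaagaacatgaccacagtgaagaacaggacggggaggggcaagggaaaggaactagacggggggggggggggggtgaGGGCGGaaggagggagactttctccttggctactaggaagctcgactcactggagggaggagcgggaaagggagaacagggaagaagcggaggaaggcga
The B4galnt2 window was 59% G and C, against a median of 52.7% over 32851 RefSeq windows of that length, and the B3gnt3 window 60.3%. The GC box (GGGCGG) was found 1 time in each, first base at -71 in B4galnt2 and at -50 in B3gnt3, and is in 35.7% of all windows. The letters bound by TEAD factors (CATTCC) were found at -21 in B4galnt2 and are in 14.7% of all windows. Neither window held the TATA box letters (TATAAA), which 13.6% of all windows hold. Neither held the letters of the CCAAT box, in 37.4% of windows, of AP-1 (TGANTCA), in 7.81%, or of TCF factors (CTTTGAT), in 3.73%. No matched letters overlapped. A match here is a description of letters only. Of the 10 genes, 6 had a RefSeq window: these, Gcnt1, C1galt1, Galnt3 and Galnt6.

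The libraries held 16032912 to 21247023 counts each, and all levels below are CPM (counts scaled to a fixed library size) scaled over the 9 libraries. Itga2 was lower in KO than in WT libraries in both settings with no overlap (log2 fold change -1.32 in tumours, edgeR adjusted p = 0.00602, and -0.64 in culture, adjusted p = 0.0135), with 44.5 and 64.0 CPM still counted in KO tumours and 96.5 and 104 CPM in KO cultures. The counts thus show a lower Itga2 level and not its loss, and the labels do not say which part of the gene was deleted. The labels' cell type is pancreatic cancer cells, and 9 epithelial markers summed to 8300.2 to 10791 CPM in KO tumours, 5027 to 6259.7 in WT tumours, 11034 to 11420.0 in KO cultures and 11296 to 12355 in WT cultures, with 1 of the 9, Cldn7, at 0 in KO cultures. Of these 9, Krt8, Krt19 and Muc1 rose in KO tumours (log2 0.97, 1.04 and 1.29), Epcam and Cldn7 fell by 1.57 and 4.21, and 4 were not called. In KO cultures Cdh1 rose by 0.62, and Krt7 (-0.61), Cldn4 (-3.04), Epcam and Cldn7 fell, Epcam with 1 count in KO cultures and 109 in WT cultures and Cldn7 with 0 and 470, while 4 were not called. The 9 fibroblast and pericyte markers summed to 467 to 671 CPM in KO tumours and 1119 to 3026 in WT tumours, and 4 of them fell; the 6 endothelial markers summed to 32.1 to 61.6 and 57.5 to 133, and 1 fell. The 12 leukocyte markers summed to 184 to 262 CPM in KO tumours and 159 to 236 in WT tumours with 0 of 11 tested called. In culture the fibroblast and endothelial sums were at most 2.59 CPM and the leukocyte sum at most 12.1 CPM. Of 2 leukocyte markers tested in culture, Ptprc rose (log2 1.71) and Cd68 fell (-1.12) in KO. The 7 markers of skin, muscle and fat summed to 140 to 149 CPM in KO cultures and 116 to 132 in WT cultures, mostly Krt14. Their sums were 66.2 to 193 CPM in KO tumours and 154 to 218 in WT tumours. Mitochondrial genes took 2.69 to 3.33% of counts in KO tumours and 1.90 to 2.00% in WT tumours, but 2.05 to 2.16% in KO cultures and 3.39 to 4.72% in WT cultures. In tumours, fewer cancer cells and less RNA per cancer cell cannot be told apart.

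**Figure D1:**
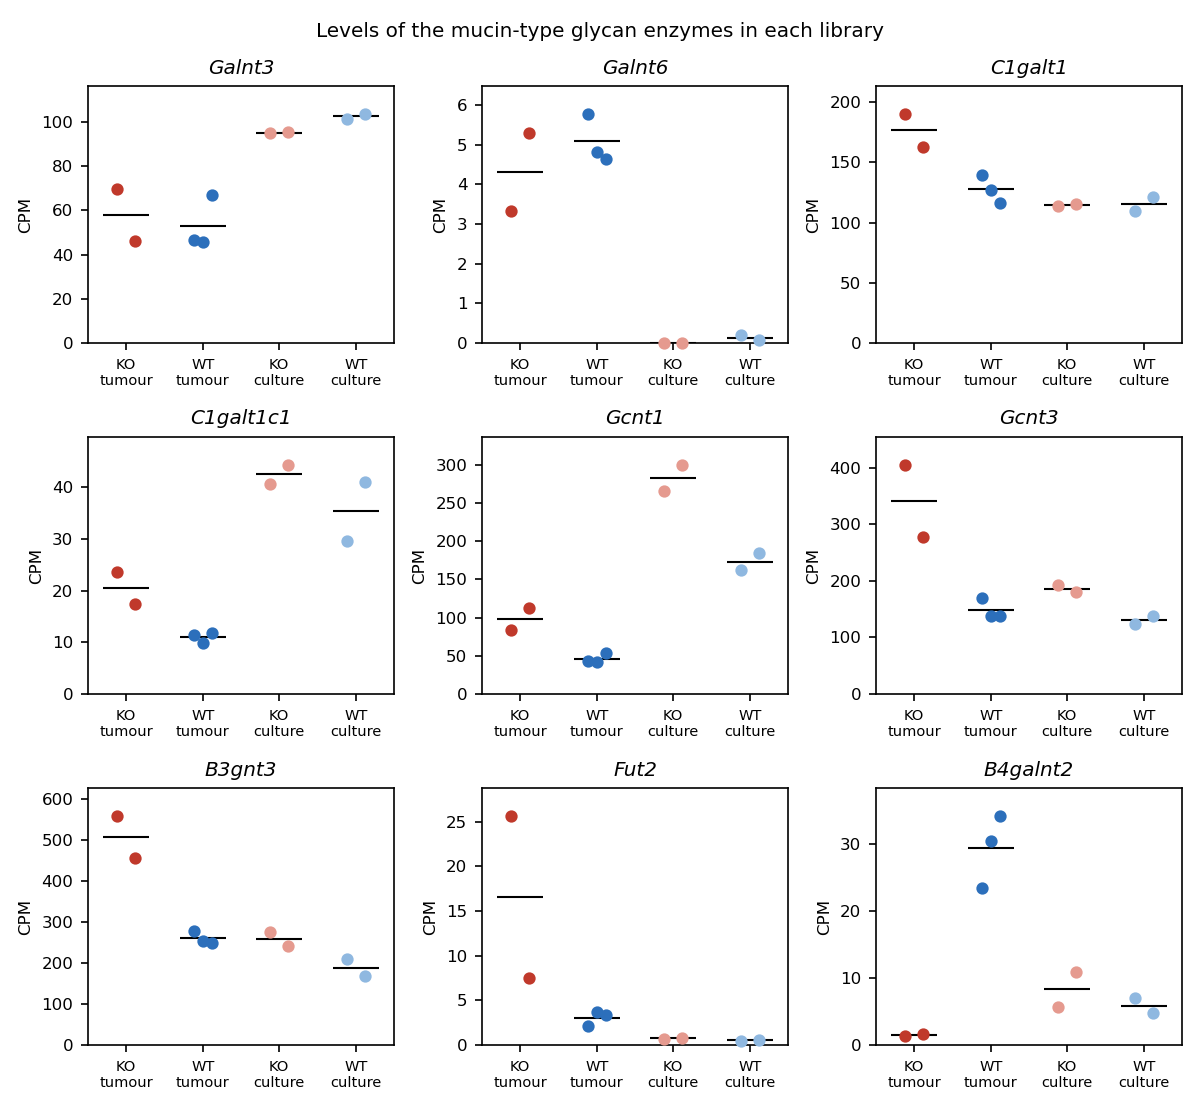
Level of each of 9 glycan enzymes in each library (CPM, y axis starting at 0), by group (x axis: KO tumours, WT tumours, KO cultures, WT cultures). Points are libraries and lines are group means. B4galnt2 lay between 1.34 and 1.67 CPM in KO tumours and between 23.4 and 34.2 in WT tumours. St6galnac1, with no count in any library, is not drawn.

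B4galnt2 (ENSMUSG00000013418, GRCm38 chromosome 11, 95865943 to 95914891, minus strand) adds the terminal GalNAc of the Sda (Cad) antigen, which needs a sialic acid on the neighbouring galactose. It had 1.34 and 1.67 CPM in KO tumours, 23.4, 30.4 and 34.2 CPM in WT tumours, 5.73 and 10.8 CPM in KO cultures, and 6.95 and 4.76 CPM in WT cultures. KO tumours were the lowest of all 9 libraries and WT tumours the highest, with no overlap of either group with any other, while KO and WT cultures overlapped. The fitted level was 19.6-fold lower in KO than in WT tumours (log2 -4.29, and -4.44 to -4.15 over the 13 alternative analyses). In culture the log2 difference was 0.44, and it was -0.070 without KO culture 2 and 0.84 without KO culture 1. Tumours stood at log2 -2.44 against culture in KO cells and at 2.32 in WT cells, so its level was lower in tumours than in culture for KO cells and higher for WT cells. B4galnt2 rested on 54 counts in KO tumours and 1891 in WT tumours. An antisense gene model, Gm11534, overlaps it and had 0 to 23 counts, and the labels do not say whether counting used strand.

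Likeness to B4galnt2 over the 9 libraries was compared among 12416 genes with a mean of at least 1 CPM. Gene models with no symbol of their own were left out. The most alike were Otulin, Mras, Ltbp2, Shtn1 and Rtl10, with Pearson r of log2(CPM + 1) from 0.97 to 0.93. All 9 values share the same libraries and groups, and r is a description. Their tumour contrasts were smaller: Mras, a small GTPase of the Ras family, had means of 1.83 ± 0.0609 CPM in KO tumours, 6.93 ± 1.06 in WT tumours, 4.22 ± 1.49 in KO cultures and 4.30 ± 0.0817 in WT cultures (SD, n = 2, 3, 2 and 2). Ltbp2, a matrix protein of the LTBP family, had 6.53 ± 1.23 CPM in KO tumours, 64.0 ± 28.0 in WT tumours, 17.4 ± 2.03 in KO cultures and 23.8 ± 4.90 in WT cultures.

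Between KO and WT tumours, 5 of the 8 other enzymes that passed the filter on low counts rose and 0 fell, where 8.78% of all 16257 genes tested rose and 10.9% fell. They were Gcnt1, Gcnt3, C1galt1c1, B3gnt3 and Fut2, and C1galt1, Galnt3 and Galnt6 were not called. The count was 3 when KO tumour 1, WT tumour 1 or WT tumour 3 was left out, 2 without WT tumour 2, and 6 with KO tumour 3 left out. In 6 of the 8, all KO tumours lay above all WT tumours, as they did for 27.3% of genes. The median log2 difference of the 8 was 0.91, beside -0.00565 over all genes. The list was chosen with earlier results of these data known, so its counts and medians here and in culture are descriptions. The epithelial marker sum given above was also higher in KO tumours without overlap, the fibroblast sum lower, and the mitochondrial share higher; their part in these results was not tested. In cultures, fibroblast and endothelial markers summed to at most 2.59 CPM and leukocyte markers to at most 12.1 CPM. Between KO and WT cultures, 2 of 7 enzymes tested rose, Gcnt1 and Gcnt3, and 0 fell, where 9.27% of 13573 genes rose and 16.2% fell. The median of the 7 was 0.42 beside -0.000302. In 4 of the 7, all KO cultures lay above all WT cultures, as they did for 32.8% of genes. The mitochondrial share was lower in KO cultures without overlap, and 4 of 9 epithelial markers fell there and 1 rose; their part in these results was not tested. The culture count was 1 without KO culture 1 or WT culture 2 and 0 without KO culture 2 or WT culture 1.

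**Figure D2:**
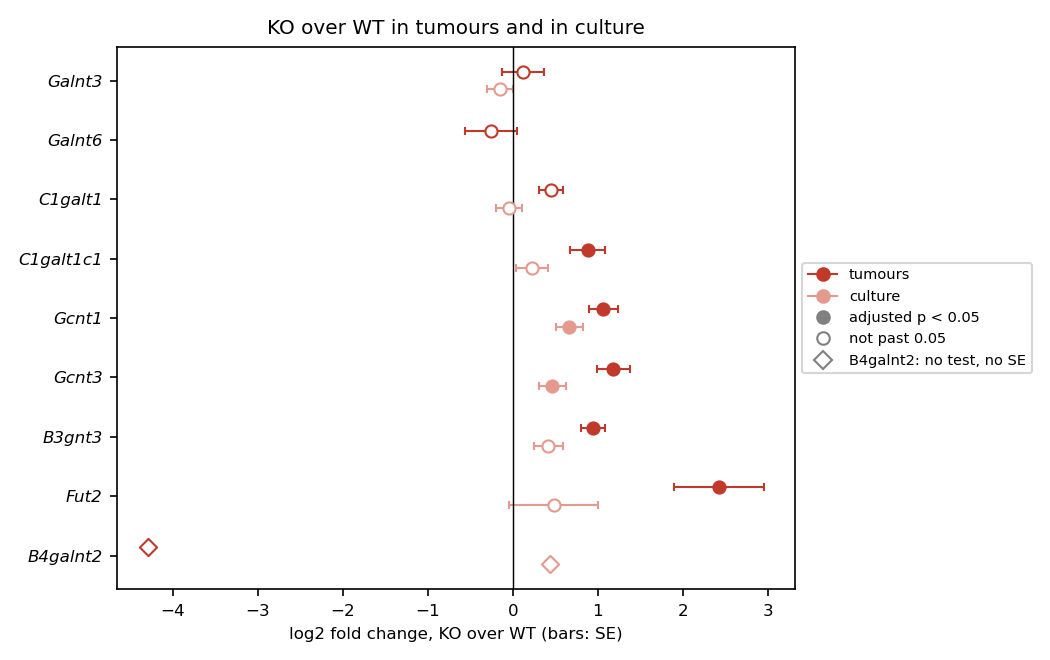
Log2 fold change of KO over WT (x axis, bars are SE) for each enzyme (y axis), in tumours (dark) and in culture (pale). Filled points passed an edgeR adjusted p of 0.05; diamonds are B4galnt2, with no test. B4galnt2 stands at -4.29 in tumours and 0.44 in culture, and 5 other enzymes are filled on the right in tumours.

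Galnt3 and Galnt6 start the chain, and neither passed the test for the knockout. Galnt3 (ENSMUSG00000026994, chromosome 2, 66082766 to 66124994), also known for protecting the hormone FGF23 from cleavage, had 69.9 and 46.1 CPM in KO tumours, 46.6, 45.5 and 66.9 in WT tumours, 94.9 and 95.3 in KO cultures, and 101 and 104 in WT cultures. KO and WT tumours overlapped, and KO cultures lay just below WT cultures. The log2 difference between KO and WT was 0.11 in tumours (SE 0.25, edgeR adjusted p = 0.773) and -0.15 in culture (SE 0.15, adjusted p = 0.507), and in tumours it ranged from -0.23 without KO tumour 1 to 0.41 without KO tumour 3. Galnt6 (ENSMUSG00000037280, chromosome 15, 100691813 to 100729376) had 3.33 and 5.29 CPM in KO tumours, 5.78, 4.82 and 4.63 in WT tumours, no count in either KO culture, and 0.189 and 0.0653 CPM in WT cultures, which stand for 3 counts and 1 count. It was present in every tumour and at or near 0 in every culture. The log2 difference between KO and WT tumours was -0.26 (SE 0.31, adjusted p = 0.585), and Galnt6 did not pass the filter in culture. The antisense model Galnt6os, with 0 to 10 counts, overlaps Galnt6.

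C1galt1 (ENSMUSG00000042460, chromosome 6, 7844842 to 7875687) makes core 1, the base of most mucin-type chains. It had 191 and 163 CPM in KO tumours, 139, 127 and 116 in WT tumours, 114 and 116 in KO cultures, and 109 and 121 in WT cultures. The KO tumours lay above the WT tumours, and the cultures overlapped. The difference between KO and WT tumours was log2 0.45 (SE 0.14, edgeR adjusted p = 0.0650) and was not called, although DESeq2 (adjusted p = 0.0310), leaving out KO tumour 3 (0.59, adjusted p = 0.0330) and 1 fit of all 9 libraries (adjusted p = 0.0254) called it. In culture it was -0.05 (SE 0.15, adjusted p = 0.852). The models Gm43961 and Gm43962 overlap C1galt1 with at most 19 counts.

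C1galt1c1 (ENSMUSG00000048970, chromosome X, 38630785 to 38635087) encodes Cosmc, without which core 1 is not made and chains stop at the Tn antigen. It had 23.6 and 17.5 CPM in KO tumours, 11.5, 9.84 and 11.8 in WT tumours, 40.6 and 44.4 in KO cultures, and 29.6 and 41.1 in WT cultures. All KO tumours were above all WT tumours, and the cultures overlapped. It rose in KO tumours (log2 0.88, SE 0.21, edgeR adjusted p = 0.0291), but the call was lost without KO tumour 1 (0.64, adjusted p = 0.105), WT tumour 1 (adjusted p = 0.0945), WT tumour 2 (0.113) or WT tumour 3 (0.0501). In culture the difference was 0.23 (SE 0.19, adjusted p = 0.425).

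Gcnt1 and Gcnt3 make the core 2 branch, Gcnt1 in many tissues and Gcnt3 mainly in mucus-secreting epithelium, where it also makes core 4. Gcnt1 (ENSMUSG00000038843, chromosome 19, 17326141 to 17372844) had 83.5 and 113 CPM in KO tumours, 42.8, 41.9 and 54.1 in WT tumours, 265 and 300.5 in KO cultures, and 162 and 184 in WT cultures. KO was above WT without overlap in both settings. It rose with the knockout in tumours (log2 1.06, SE 0.17, edgeR adjusted p = 0.0100) and in culture (0.67, SE 0.16, adjusted p = 0.00836). The tumour call was lost without WT tumour 2 (0.99, adjusted p = 0.0518), and the culture call without KO culture 2 (0.58, adjusted p = 0.0996) or WT culture 1 (0.59, adjusted p = 0.0757). Gcnt3 (ENSMUSG00000032226, chromosome 9, 70031496 to 70038088) had 406 and 277 CPM in KO tumours, 170, 138 and 138 in WT tumours, 192 and 180 in KO cultures, and 123 and 139 in WT cultures. Again KO was above WT without overlap in both settings, and KO tumour 1 was the highest library. Gcnt3 rose in KO tumours (log2 1.18, SE 0.20, edgeR adjusted p = 0.0111), a call kept in all 13 alternatives, at most adjusted p = 0.0499 without WT tumour 2. In culture it rose by 0.47 (SE 0.15, adjusted p = 0.0429), a call lost without any 1 of the 4 libraries (adjusted p = 0.278, 0.141, 0.268 and 0.129 without KO culture 1, KO culture 2, WT culture 1 and WT culture 2).

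B3gnt3 (ENSMUSG00000031803, chromosome 8, 71690756 to 71701789) extends core 1 with GlcNAc, a step used for some of the L-selectin ligands of lymph node vessels in mice. It had 559 and 455 CPM in KO tumours, 279, 255 and 248 in WT tumours, 276 and 240 in KO cultures, and 208 and 167 in WT cultures. Every KO library was above every WT library of its setting, and the KO tumours were the highest of all. B3gnt3 rose in KO tumours (log2 0.95, SE 0.14, edgeR adjusted p = 0.00791), a call kept in all 13 alternatives. In culture the difference was 0.42 (SE 0.17, adjusted p = 0.0981) and was not called. The antisense model Gm45756 overlaps B3gnt3 and had 2 to 98 counts.

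Fut2 and St6galnac1 cap chains. Fut2 (ENSMUSG00000055978, chromosome 7, 45648591 to 45666394), the secretor fucosyltransferase that makes the H antigen in epithelia, had 25.7 and 7.51 CPM in KO tumours, 2.09, 3.72 and 3.40 in WT tumours, 0.723 and 0.764 in KO cultures, and 0.505 and 0.522 in WT cultures. KO tumours were above WT tumours, and KO tumour 1 stood far above every other library. Fut2 rose in KO tumours (log2 2.42, SE 0.53, edgeR adjusted p = 0.0242). The size rested on KO tumour 1, since the difference was 1.26 (adjusted p = 0.0903) without it and 3.08 (adjusted p = 0.00386) without KO tumour 3. The call was also lost with limma-voom (adjusted p = 0.0600) and without WT tumour 1, 2 or 3 (adjusted p = 0.0819, 0.0712 and 0.0664). In culture, on 24 counts in KO and 16 in WT, the difference was 0.48 (SE 0.52, adjusted p = 0.546). Fut1 and Sec1 are close relatives of Fut2, and the labels do not say how reads matching several of them were counted. St6galnac1 (ENSMUSG00000009588, chromosome 11, 116765025 to 116775507), which makes the sialyl-Tn antigen, had no count in any of the 9 libraries, which allows at most 0.0842 CPM in KO tumours, 0.0469 in WT tumours, 0.0927 in KO cultures and 0.0963 in WT cultures, taking 3 counts over a group and counting error only.

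Whether the KO effect itself differed between tumours and culture was tested in 1 fit of the 9 libraries. None of the 8 enzymes tested passed (0 called by edgeR, DESeq2 and limma-voom alike, where edgeR called 5.69% of 16793 genes). Galnt6 entered this fit only through the tumours, and of the 7 enzymes that passed the filter in both settings 0 were called. The differences of the effects, tumours minus culture, were log2 0.69 for Gcnt3 (SE 0.26, edgeR adjusted p = 0.153), 0.50 for B3gnt3 (SE 0.22, adjusted p = 0.226), 1.91 for Fut2 (SE 0.85, adjusted p = 0.231) and 0.38 for Gcnt1 (SE 0.25, adjusted p = 0.441). C1galt1c1 stood at 0.63 (SE 0.28, adjusted p = 0.226), C1galt1 at 0.47 (SE 0.20, adjusted p = 0.199) and Galnt3 at 0.24 (SE 0.30, adjusted p = 0.735). A missing call here does not show that the effects were equal. Without KO tumour 3, Gcnt3 (0.95) and Fut2 (2.54) stood higher. B4galnt2 stood at -4.76 on this scale, with no test.

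Setting moved most of the enzymes, as it did most genes. Of the 7 enzymes that passed the filter in both settings, 7 differed between tumours and culture in KO cells, where 59.3% of genes did, and 5 in WT cells, where 65.7% did. Galnt6, which passed only through the tumours, is not counted here. The median of all genes was 0.17 in each genotype, and it was 0.60 in KO and 0.64 in WT when libraries were scaled by their totals, with the share of calls that were higher going to 74.4% and 72.7%, against 55.5% and 54.9% as reported. Values below are to be read against those shifts. Gcnt1 fell in tumours by log2 1.52 in KO (SE 0.19, edgeR adjusted p = 6.85e-05) and by 1.90 in WT (SE 0.17, adjusted p = 6.54e-06), and C1galt1c1 fell by 1.05 in KO (SE 0.21, adjusted p = 0.00141) and by 1.68 in WT (SE 0.19, adjusted p = 2.66e-05). B3gnt3 rose by 0.97 in KO (adjusted p = 0.000536) and by 0.47 in WT (adjusted p = 0.0179), the WT call being lost without WT culture 2 (0.30, adjusted p = 0.203) or WT tumour 1 (adjusted p = 0.0588). Fut2 rose by 4.47 in KO (SE 0.60, adjusted p = 0.000112) and by 2.56 in WT (SE 0.59, adjusted p = 0.00298).

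Galnt6 was at least 46.9-fold higher in KO tumours than in KO cultures, counted against 3 counts over the 2 cultures, and its ratio of scaled counts in WT tumours to WT cultures was 39.4 (95% counting interval 15.2 to 146), resting on 4 culture counts. Gcnt3 rose by 0.88 and C1galt1 by 0.62 in KO tumours against KO cultures (edgeR adjusted p = 0.00251 and 0.00402); in WT they stood at 0.19 and 0.15 (adjusted p = 0.358 and 0.344), and scaling by library totals called both in WT (0.67 and 0.63). Galnt3 fell by 0.71 in KO tumours (adjusted p = 0.0185) and by 0.95 in WT tumours (adjusted p = 0.00183). Its KO call was lost without KO culture 1, KO culture 2 or KO tumour 3 (adjusted p = 0.0605, 0.0652 and 0.126), and under scaling by totals the difference was -0.29 in KO (adjusted p = 0.281) and -0.47 in WT (adjusted p = 0.0588). Host cells, dissociation and batch all go with setting and cannot be told apart.

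Levels per length, as CPM per kilobase of exons, allow the enzymes to be ranked within a group. B3gnt3 was first in all 4 groups, at 166 ± 24.2 CPM per kilobase in KO tumours, 85.2 ± 5.31 in WT tumours, 84.5 ± 8.27 in KO cultures and 61.5 ± 9.60 in WT cultures (SD, n = 2, 3, 2 and 2). In KO tumours Gcnt3 (79.4 ± 21.1) and C1galt1 (29.0 ± 3.26) followed, then Gcnt1, C1galt1c1 and Galnt3 at 17.1 ± 3.61, 14.2 ± 3.00 and 13.3 ± 3.85, which did not differ beyond their spread. B4galnt2 had rank 4 in WT tumours at 17.0 ± 3.20 CPM per kilobase and, among the 9 with any count, last in KO tumours at 0.876 ± 0.136. In WT tumours Galnt3, Gcnt1 and C1galt1c1 came next at 12.1 ± 2.76, 8.03 ± 1.17 and 7.61 ± 0.716, and Galnt6 (1.31 ± 0.159) and Fut2 (0.565 ± 0.159) were lowest. In cultures the order ran B3gnt3, then Gcnt1 and Gcnt3 within their spread in WT (30.1 ± 2.72 and 30.4 ± 2.57), then C1galt1c1, Galnt3 and C1galt1, and B4galnt2 at 4.81 ± 2.10 in KO and 3.40 ± 0.896 in WT.

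The ratio of Gcnt1 to Gcnt3 per kilobase was 0.154 and 0.304 in KO tumours, 0.188, 0.227 and 0.292 in WT tumours, 1.03 and 1.25 in KO cultures, and 0.985 and 0.993 in WT cultures. Gcnt3 was the more abundant core 2 transcript in every tumour, and the transcripts were near equal in every WT culture. The ratio of the chaperone C1galt1c1 to its client C1galt1 was 0.522 and 0.453 in KO tumours, 0.346, 0.325 and 0.425 in WT tumours, 1.50 and 1.62 in KO cultures, and 1.14 and 1.42 in WT cultures. It was below 1 in every tumour and above 1 in every culture. Both ratios separate the settings without overlap, and in each setting the chaperone ratio was higher in every KO library than in any WT library. The lowest KO and highest WT values of the chaperone ratio were close, 0.453 and 0.425 in tumours and 1.50 and 1.42 in culture. Neither ratio was tested.

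**Figure D3:**
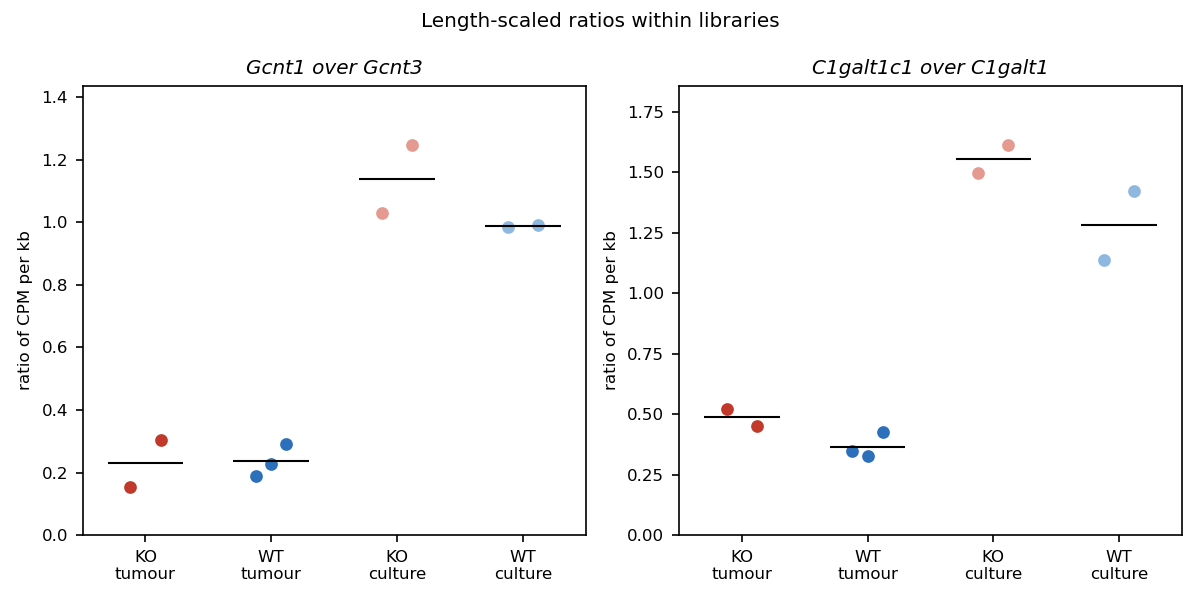
Ratio of CPM per kilobase of Gcnt1 to Gcnt3 (left) and of C1galt1c1 to C1galt1 (right) in each library (y axis starting at 0), by group (x axis). Points are libraries and lines are group means. Tumours lie at 0.154 to 0.304 on the left, and cultures at 0.985 to 1.25.

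Across the 9 libraries, Pearson r of log2(CPM + 1) between pairs of these enzymes ranged from -0.93 to 0.96. Gcnt1 and C1galt1c1 had the highest, 0.96, and Gcnt3 and B3gnt3 0.93, while Galnt6 had -0.93 with both Galnt3 and C1galt1c1. B4galnt2 ran against Gcnt3 most closely, at -0.71. The pairs share libraries, setting and scaling, so these are descriptions. They follow the values above: Gcnt1, C1galt1c1 and Galnt3 were high in culture and low in tumours, and Gcnt3, B3gnt3, C1galt1 and Fut2 were highest in KO tumours.

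Another 98 glycosylation genes were listed by role, also with earlier results of these data known, and some of them act on N-glycans or gangliosides. Of the 98, 78 passed the filter in tumours and 66 in culture. In KO tumours against WT tumours, 13 rose, 6 fell and 59 were not called, and in KO cultures against WT cultures 9 rose, 17 fell and 40 were not called. The shares of all genes, which apply to each role below, were 8.78% higher and 10.9% lower in KO tumours, and 9.27% higher and 16.2% lower in KO cultures, and no count by role was tested against them. In tumours leaving out WT tumour 1 or WT tumour 2 gave 7 calls, KO tumour 1 gave 10 and KO tumour 3 gave 27, and in culture 15 to 18 without any 1 library, 15 of them without KO culture 1. Their median log2 differences were -0.02 in tumours and -0.07 in culture. Of the up to 4 genes per role with the smallest p, the call was kept in every alternative for 7 of 16 in tumours and 13 of 21 in culture, and the genes named below are from these. Among the initiating enzymes, 2 of 12 rose and 0 fell in KO tumours, and 0 of 9 rose and 4 fell in KO cultures. Galntl6, a family member best known from brain, had 18.4 and 17.0 CPM in KO tumours and 2.77, 2.66 and 2.59 in WT tumours (log2 2.71, SE 0.21, edgeR adjusted p = 0.00129), but 7.78 and 10.4 in KO cultures and 9.85 and 10.8 in WT cultures, where it was not called (adjusted p = 0.495). In culture Galnt4 and Galnt12 fell by 0.94 and 1.16 (adjusted p = 0.00143 and 0.00327). Of the other chain extension genes, 0 of 12 were called in KO tumours, and in KO cultures 1 of 9 fell, B4galt4, a galactosyltransferase with no count in KO cultures and 24 and 23 counts in WT cultures, at least 16.3-fold lower against 3 counts over both KO libraries.

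Of 11 sialyltransferases tested in each setting, 1 rose and 2 fell in KO tumours, and 3 rose and 4 fell in KO cultures. St6galnac3, which adds sialic acid to the GalNAc of sialylated core 1 and to gangliosides, had 5.90 and 2.97 CPM in KO tumours, 0.729, 0.402 and 0.680 in WT tumours, 10.1 and 12.9 in KO cultures, and 0.568 and 0.261 in WT cultures. Every KO library was above every WT library (log2 2.85 in tumours, SE 0.46, edgeR adjusted p = 0.00972, and 4.71 in culture, SE 0.38, adjusted p = 2.71e-06). St6galnac2, which sialylates the GalNAc of core 1 and Tn, had 0.409 and 0.486 CPM in KO tumours and 5.00, 7.03 and 5.87 in WT tumours (log2 -3.74, SE 0.37, adjusted p = 0.00253), from the larger of the gene models that carry its name. In culture St3gal6 rose by 1.82 (adjusted p = 8.32e-06), and St3gal5, the GM3 ganglioside synthase, and St6gal1, which caps N-glycans, fell by 1.19 and 0.90 (adjusted p = 0.000714 and 0.000858).

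Of the 7 other fucosyltransferases tested in each setting, 0 rose and 2 fell in KO tumours, and 1 rose and 2 fell in KO cultures. Fut10 had 2.98 and 4.54 CPM in KO tumours, 22.4, 22.6 and 21.5 in WT tumours, 9.79 and 15.6 in KO cultures, and 27.9 and 28.4 in WT cultures. It fell by 2.58 in tumours (SE 0.23, edgeR adjusted p = 0.00186) and by 1.20 in culture (SE 0.23, adjusted p = 0.00188). In culture Fut4, which makes the Lewis x antigen, fell by 1.29 (adjusted p = 0.00270), and Sec1, the neighbour and relative of Fut2, rose by 1.43 (adjusted p = 0.00557).

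The terminal list holds the relatives of B4galnt2. B4galnt1, which makes the gangliosides GM2 and GD2, had 178 and 129 CPM in KO tumours, 55.2, 54.0 and 76.3 in WT tumours, 60.4 and 55.5 in KO cultures, and 28.7 and 25.0 in WT cultures, and rose with the knockout by 1.29 in tumours (SE 0.21, edgeR adjusted p = 0.0104) and by 1.07 in culture (SE 0.18, adjusted p = 0.000692). B4galnt4, which makes LacdiNAc, had 1.05 and 1.40 CPM in KO tumours, 13.9, 19.1 and 13.6 in WT tumours, 1.00 and 0.556 in KO cultures, and 5.50 and 5.03 in WT cultures, and fell by 3.67 in tumours (SE 0.30, adjusted p = 0.00150) and by 2.76 in culture (SE 0.38, adjusted p = 0.000177). KO was below WT in both settings for B4galnt4 and in tumours for B4galnt2, and above WT in both for B4galnt1. B4galnt3 stood at log2 -0.54 in tumours (adjusted p = 0.623). Over the list, 2 of 5 rose and 2 fell in tumours, and 2 of 3 rose and 1 fell in culture.

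Of the 24 genes that make and carry nucleotide sugars, 7 rose and 0 fell in KO tumours, and 2 of 23 rose and 4 fell in KO cultures. The difference between the KO effects of tumours and culture was 2.92 for Galntl6 (SE 0.32, edgeR adjusted p = 0.00115), a call kept in all 16 alternatives. Of the 78 other pathway genes 7 had KO effects that differed between settings, 6 higher in tumours and 1 lower, where 5.69% of all genes did, and 2 to 14 without 1 library. Sulfotransferases had 1 of 5 higher in KO tumours, and 1 of 2 higher and 1 lower in KO cultures; of the other core and branching genes, 0 of 2 were called in either setting.

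**Figure D4:**
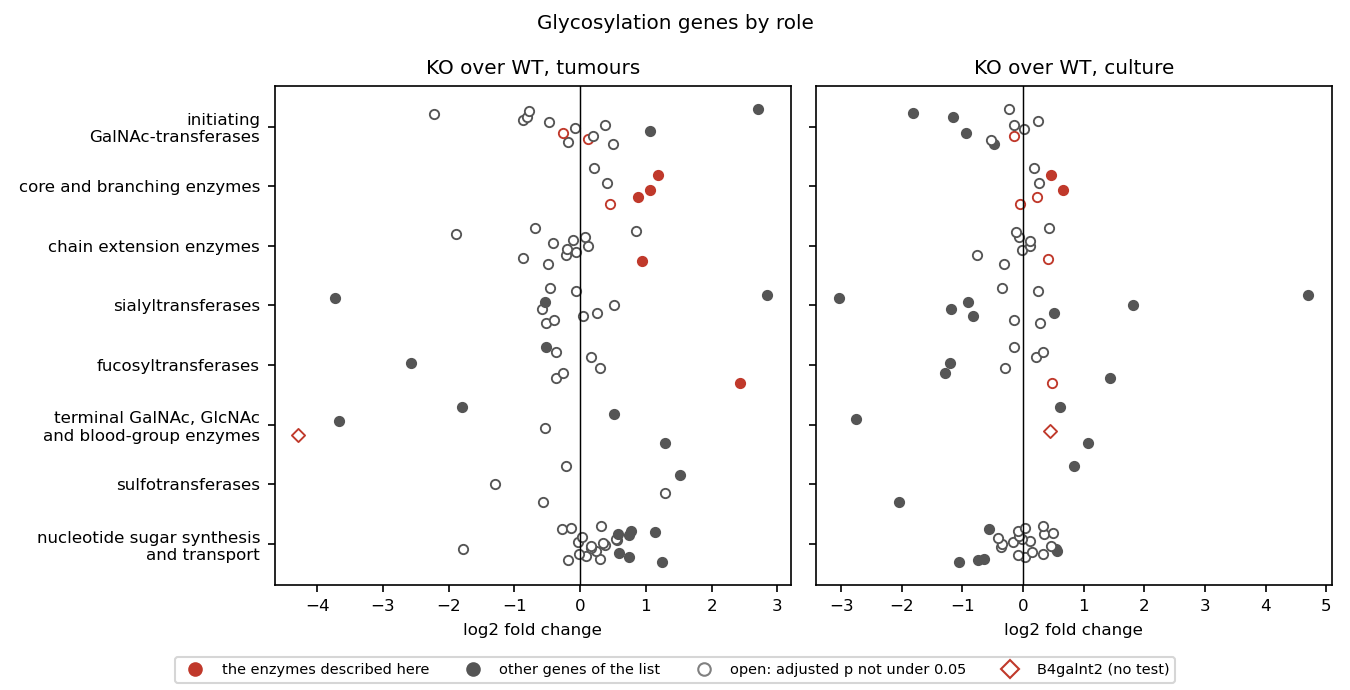
Log2 fold change of KO over WT (x axis) for genes of 8 role lists (y axis), in tumours (left) and culture (right). Red points are the enzymes described here, grey points other genes, filled points passed an edgeR adjusted p of 0.05, and the diamond is B4galnt2, with no test. Core and branching enzymes stand right of 0 in tumours, B4galnt2 at -4.29. Genes with no count in one group are not drawn.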

How the data were processed

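Poly(A) RNA of 9 mouse libraries was sequenced with ERCC control RNA added and duplicates removed by molecular identifiers, per the labels' protocols. The authors deposited raw counts per Ensembl gene, 1 table per setting, made with fastp 0.23.1, STAR 2.5.2b, featureCounts and Subread 1.5.2 on GRCm38, per the submitters' processing notes, which give no role or order and also name DESeq2; annotation release, strandedness and handling of multi-mapped reads: not given in the sources used here. Symbols, exon lengths and positions came from GENCODE M21 on GRCm38, and 0 rows of control RNA were in the tables. The deposited normalized tables were not used.

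Counts were tested with edgeR 4.0.16 (R 4.3.3): TMM scaling, filterByExpr (minimum count 10, minimum total 15), quasi-likelihood F test, and Benjamini-Hochberg adjustment over all genes tested at 0.05. KO was compared with WT within each setting, and the difference of effects and the settings in 1 fit of 9 libraries, without a replicate block. SE was derived from the fold change and its F value. The method was tested on simulated counts. Alternatives used DESeq2 1.42.0, limma 3.58.1, other scaling and filters, each library left out, and the replicate number as a block. Counting intervals are 95% exact and cover counting error only.

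The members and gene lists were chosen with earlier results of these data known. Named genes are all members, up to 4 genes per list with the smallest p if called, and the 5 genes most like B4galnt2; of the list genes, KO effects within a setting are printed for those kept in every alternative, and for B4galnt3, a relative of B4galnt2 added after its values were seen, and differences between settings for those called. Some results are not reported here.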

Additional observations from a re-analysis of the deposited data

Results flagged for a closer look

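For other glycosylation genes the KO effect in tumours differed from that in culture by the test of the difference itself. As log2, tumours minus culture, with edgeR adjusted p under 0.05, the differences were 2.92 for Galntl6, 0.95 for Galnt1, 0.92 for Galk2, 0.78 for Slc35a3, -1.40 for Fut10 and 7.38 for B4galt4. The value of B4galt4 depends on the prior count, since KO cultures had no count of it. The call of Galntl6 was kept in all 16 alternatives, and each of the other 5 was lost in at least 1.

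For B4galnt2, tumours stood at log2 -2.44 against culture in KO cells and at 2.32 in WT cells, with every tumour library on that side of every culture library of its genotype. The difference between the genotypes was not tested, because B4galnt2 was chosen for it.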

How the results depend on the processing

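Of 571 values for the enzymes other than B4galnt2 under alternative analyses, 535 kept their side of the threshold, 27 lost the call and 9 gained it. Direction changed in 0 cases where the reported or the alternative value was called. Values called in neither could change direction and are among the 535, as for Galnt3 between KO and WT tumours (log2 -0.23 to 0.41). B4galnt2 in culture reversed to -0.070 without KO culture 2, and was 0.84 without KO culture 1 (0.44 as reported). Enzymes called in culture, 2 as reported, were 1 under scaling by library totals and 1 in 1 fit of all 9 libraries, and 0 to 1 without 1 library. Without 1 library, genes called were 2130 to 2985 in culture (3461 as reported), 1171 to 4143 in tumours (3206), 288 to 1651 for the difference of the effects (955), 7224 to 10005 between settings in KO (9950) and 8045 to 11864 in WT (11032). Enzymes called without 1 library were 2 to 6 in tumours, 0 to 2 for the difference, 7 to 8 and 5 to 6 between settings in KO and WT (Galnt6 included), and other pathway genes 15 to 18 in culture, 7 to 27 in tumours, 2 to 14 for the difference, 37 to 54 and 37 to 53 between settings in KO and WT. For the difference, no filter gave 1875 genes and 12 pathway genes, DESeq2 1625 and 11, and limma-voom 4 pathway genes (7 as reported). The cause was not tested.

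The replicate numbers are not stated to pair samples. With the number as a replicate block, culture gave 7587 genes, 4 enzymes and 42 pathway genes, tumours 1428, 3 and 8, and the difference 546 genes and 3 pathway genes. The block called C1galt1c1 (0.24, adjusted p = 0.0249) and B3gnt3 (0.42, adjusted p = 2.61e-08) in culture, and did not call C1galt1c1 (0.79, adjusted p = 0.144) or Fut2 (2.35, adjusted p = 0.0730) in tumours. Same-numbered cultures deviated together (r = 0.56). With 2 libraries per culture group, both pairs give this r by construction, so it is 1 value and a hint only. Tumours had r of -0.01 and 0.03, with columns 1 and 3 of KO matched to WT.

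Low levels limit Fut2, with 16 to 24 counts per culture group, Galnt6 in culture and B4galnt2 in KO tumours.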
